A study of Mus musculus with 6 samples.

Results

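Genes of endothelial tip cells, Notch signalling, the angiopoietin-Tie system and platelet-derived growth factor were followed through the cell types of the mouse retina. They were 10 of the 31053 genes in the count tables, taken by symbol: Dll4, Notch1, Jag1, Esm1, Angpt1, Angpt2, Tek, Plvap, Pdgfb and Pdgfrb. The study compared retinas after oxygen-induced retinopathy (OIR) with untreated retinas (Ctrl) by droplet single-cell RNA sequencing of 3′ ends. OIR pups had breathed 75% oxygen from postnatal day 7 to day 12 and had then spent 5 days in room air, and both groups were taken at day 17. There were 6 samples, 3 per group, and each held retinas from 2 mice combined. The labels gave no genotype, transgene or sex for any of them. The labels called the animals adult and the tissue retinal endothelial cells. The cells were instead those of the whole retina, in which 196 of the 38569 kept cells fell in the cluster named from endothelial markers.

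In a growing vessel, a tip cell leads the sprout and the stalk cells behind it follow. The Notch ligand Dll4 on the tip cell activates Notch1 on its neighbours and keeps them from becoming tip cells, and the ligand Jag1 competes with Dll4 for that receptor. Esm1 encodes a secreted proteoglycan that marks tip cells. Tek encodes the endothelial receptor Tie2, for which Angpt1 is the activating ligand and Angpt2 a context-dependent antagonist that loosens the vessel wall. Plvap forms the diaphragms of fenestrae and caveolae and is absent from mature endothelium of the blood-retina barrier. Pdgfb from endothelium recruits mural cells, the pericytes and smooth muscle cells of the vessel wall, which carry its receptor Pdgfrb. In the oxygen-induced model, capillaries of the central retina are lost in high oxygen, and new vessels grow, partly out of the retina, after the return to room air.

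The kept cells, with 500 to 5000 detected genes and at most 20% mitochondrial reads, held between 14654629 and 36042967 unique molecular identifiers (UMIs, counted molecules) per sample. The median was between 1449.5 and 4850 UMIs per cell. Names were given from marker genes, so each type is called "like" its namesake. Ctrl-2 and Ctrl-3 contained Xist RNA and the other 4 samples Y-linked RNA, which meant that the sexes were not balanced between groups. Of the barcode sequences, 254 occurred in more than 1 sample, and 5 endothelial-like or mural-like cells carried one of them. The labels gave no origin for the replicates beyond the pooling of mice, so the p-values measure the spread between these 6 samples.

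The vessel cells were few, and 1 sample did not carry the markers of its named cells. The endothelial-like cells numbered 25, 2 and 2 in OIR-1, OIR-2 and OIR-3. In Ctrl-1, Ctrl-2 and Ctrl-3 they numbered 147, 4 and 16. The 9 endothelial markers together reached 1462 CPM (UMIs of the markers per 1000000 UMIs of the summed cells) in OIR-3, from 5 UMIs of 3 markers and beside 11692 CPM of rod markers, against 8287 to 20047 CPM in the other 5 samples, and none of the 9 marker genes was a member. The mural-like cells numbered 5, 2 and 6 in OIR and 63, 5 and 5 in Ctrl. The 6 of OIR-3 held 927 CPM of mural markers and 77510 CPM of fibroblast markers, whereas the mural markers of the other 5 samples lay between 22277 and 38777 CPM. Both OIR-3 groups therefore went against their names and are given with every result they enter.

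Upstream sequence is shown for the 3 endothelial members Dll4, Esm1 and Tek, since their position in the genome and the letters before their start are the fixed context of the endothelial levels below. Each is the 250 bases before the RefSeq start on its own strand, build GRCm38.p6, with capitals for matches to the motifs searched. A promoter was found in that table for 5 of the 10 members, Dll4, Notch1, Jag1, Esm1 and Tek. Those of Notch1 and Jag1 overlapped the GENCODE gene and are not printed.
Dll4, chr2:119325534-119325783, plus strand: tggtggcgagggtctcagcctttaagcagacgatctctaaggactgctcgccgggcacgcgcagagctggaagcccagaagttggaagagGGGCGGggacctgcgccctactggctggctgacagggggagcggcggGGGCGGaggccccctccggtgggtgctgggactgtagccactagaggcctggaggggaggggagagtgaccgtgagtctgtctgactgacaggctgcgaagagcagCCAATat
Esm1, chr13:113209409-113209658, plus strand: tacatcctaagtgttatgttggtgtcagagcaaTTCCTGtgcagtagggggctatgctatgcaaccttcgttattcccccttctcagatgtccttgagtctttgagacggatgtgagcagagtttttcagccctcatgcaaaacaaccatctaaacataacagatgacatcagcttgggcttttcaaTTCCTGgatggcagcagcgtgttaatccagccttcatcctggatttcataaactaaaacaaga
Tek, chr4:94739039-94739288, plus strand: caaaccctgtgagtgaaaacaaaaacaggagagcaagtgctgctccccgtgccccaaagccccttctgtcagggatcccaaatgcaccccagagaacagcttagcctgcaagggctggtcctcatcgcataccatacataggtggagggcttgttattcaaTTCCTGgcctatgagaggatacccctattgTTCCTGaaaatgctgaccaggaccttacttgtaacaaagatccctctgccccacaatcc
Both strands were searched. The first search was for TGGGAA (the core bound by the Notch effector RBPJ), CAGGAAG (ETS factors) and ACGTG (hypoxia-inducible factors), and matched 0 of the 5 members. The ETS motif was then shortened to CAGGAA, and GGGCGG (GC box), TATAAA and also CCAAT were added after that result was seen. CAGGAA read on the minus strand at -217 and -63 before the start of Esm1 and at -89 and -59 before that of Tek. The window of Notch1 held CAGGAA at -88 and GGGCGG at -78, -58, -47, -31 and, on the minus strand, -20, and Dll4 held GGGCGG at -160 and -113 and CCAAT at -7. CAGGAA occurred in 25.7% of 32851 mouse promoters of the same length, GGGCGG in 32.7% and CCAAT in 33.8%. The RBPJ and hypoxia motifs and TATAAA, with shares of 21.6%, 16.6% and 12.4%, matched none of the 5. The matches are letters in a window and are not evidence of a bound factor.

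Across 10 named cell types, each member had a leading type (the map of mean levels by cell type). The levels below are the mean over 6 samples of CPM in the summed cells of a type. Dll4 (chr2:119325784-119335962, plus strand) averaged 87.2 CPM ± 84.0 (SD, n = 6) in endothelial-like cells and at most 1.30 CPM in any other type. Tek (chr4:94739289-94874976, plus strand) averaged 190 CPM ± 110 in endothelial-like cells, followed by mural-like cells at 37.6 CPM ± 86.5, of which the 9 UMIs of OIR-3 were the larger part. Esm1 (chr13:113209659-113218098, plus strand) was low even in its leading type, at 3.98 CPM ± 6.33 in endothelial-like cells.

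Notch1 and Jag1 were spread more widely than the ligand Dll4. Notch1 (chr2:26457903-26516663, minus strand) averaged 219 CPM ± 197 in endothelial-like cells, 123 CPM ± 14.7 in Müller-like glia, 92.5 CPM ± 77.3 in mural-like cells and 41.1 CPM ± 14.7 in microglia-like cells. Jag1 (chr2:137081456-137116644, minus strand) averaged 195 CPM ± 312 in endothelial-like cells and 153 CPM ± 112 in mural-like cells. Photoreceptors followed with 83.2 CPM ± 18.7 in cone-like and 81.8 CPM ± 30.3 in rod-like cells. The first of these Jag1 means rested on a single sample, since 7 UMIs in 2 cells gave 825 CPM in OIR-2, and with counts summed over samples mural-like cells led with 170 CPM against 86.9 CPM.

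Angpt1 and Pdgfrb had their highest mean in mural-like cells, Pdgfb and Plvap in endothelial-like cells, and Angpt2 had similar means in both. Angpt1 (chr15:42424723-42676977, minus strand) averaged 34.2 CPM ± 26.3 in mural-like cells and 20 CPM ± 18.1 in pigment epithelium-like cells. Angpt2 (chr8:18690263-18741562, minus strand) averaged 71.5 CPM ± 58.7 in mural-like and 51.2 CPM ± 60.4 in endothelial-like cells, with overlapping ranges, and its order turned with the group, at 84.6 CPM in endothelial-like against 71.2 CPM in mural-like cells in OIR and 17.9 against 71.8 CPM in Ctrl. Pdgfb (chr15:79995874-80014977, minus strand) averaged 299 CPM ± 134 in endothelial-like and 133 CPM ± 52.2 in microglia-like cells, and 8.82 CPM ± 10.7 in mural-like cells. Pdgfrb averaged 690 CPM ± 411 in mural-like cells and 54.1 CPM ± 9.42 in Müller-like glia. Plvap (chr8:71497765-71511752, minus strand) averaged 109 CPM ± 192 in endothelial-like, 21.1 CPM ± 13.1 in amacrine-like and 9.78 CPM ± 4.81 in cone bipolar-like cells. Its order turned with the group too. Endothelial-like against amacrine-like cells were at 217 against 24.1 CPM in OIR and at 0 against 18.1 CPM in Ctrl.

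Few neighbours in these orders were separated. Taking the types of a member next to each other in order of mean level, the ranges over samples overlapped except for Pdgfb in microglia-like over mural-like cells and for Pdgfrb in mural-like over Müller-like and in Müller-like over pigment epithelium-like cells.

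**Figure D1:**
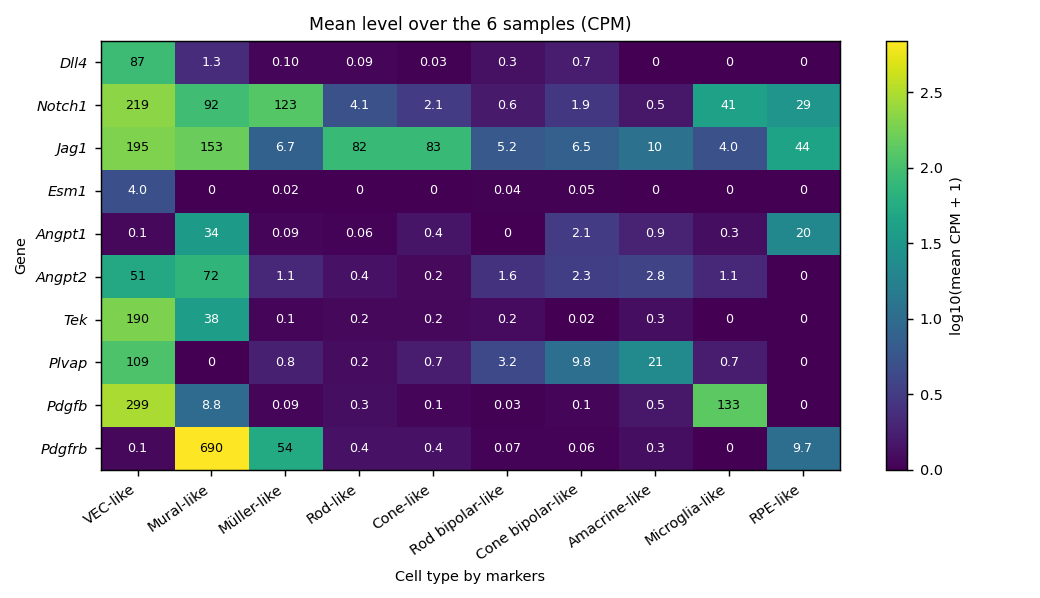
Mean level of each member (rows, CPM averaged over 6 samples, colour on a log scale) in the 10 named cell types (columns). Dll4, Esm1 and Tek are brightest in endothelial-like cells, Angpt1 and Pdgfrb in mural-like cells, and Jag1 also stands at 81.8 CPM in rod-like and 83.2 CPM in cone-like cells.

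The comparison of OIR with Ctrl asked which of these genes differed within a cell type after the vessels had been lost and had begun to regrow. UMIs were summed per sample and type and fitted with edgeR's quasi-likelihood test across all genes that passed its filter on low counts. A gene counted as called where the p adjusted by Benjamini-Hochberg was under 0.05 and its log2 fold change was 0.25 or more in size. Whether the groups overlapped is given for members only. The share of all genes without overlap was not counted, so a lack of overlap is a description and not a result by itself. In endothelial-like cells 3 members passed the filter and 0 were called, beside 0.315% of the 952 genes tested. At an unadjusted p under 0.05 there was 1 member, Tek, beside 86 of the 952 genes. DESeq2 called 0 members, beside 1 gene higher and 5 lower.

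Plvap stood out among the endothelial counts, although it fell below the filter (the plot of endothelial levels by sample). It had 37, 4 and 0 UMIs in OIR-1, OIR-2 and OIR-3 and 0 in each Ctrl sample. These UMIs came from 8 of 25, 1 of 2 and 0 of 2 cells in OIR and from 0 of 167 cells in Ctrl. In CPM that was 179, 472 and 0 in OIR against 0, so the groups overlapped only through OIR-3, whose cells lacked most endothelial markers. Summed over the groups, the OIR level of Plvap was 77.9 times a limit set for the 0 of Ctrl, 3 UMIs over the group (2.41 CPM). The counting error of the 41 OIR UMIs is not in that ratio, so it is not a lower bound. Without the filter on low counts, edgeR called Plvap higher in OIR (adjusted p = 1.98e-07), beside 0.386% of 13981 genes. With OIR-3 left out the filter let Plvap pass, through its OIR counts alone, and it was not called (adjusted p = 0.0977).

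The limit of 5000 genes per cell had removed deep endothelial barcodes, most of all in OIR. A second selection, chosen after seeing the data, took every barcode with at least 6 of the 9 endothelial markers and no upper gene limit. It held 27, 2 and 2 barcodes in OIR, of which 16, 1 and 2 lay above the limit, and 165, 4 and 10 in Ctrl, of which 47, 0 and 0 did. In these barcodes the endothelial markers reached 8644 to 10010 CPM in all 3 OIR samples, OIR-3 included, against 12675 to 16942 CPM in Ctrl. Endothelial markers were thus a smaller share of the UMIs in each OIR sample than in each Ctrl sample. Erythrocyte markers reached 30263 CPM in Ctrl-1, which gave 165 of the 179 Ctrl barcodes, and at most 17.7 CPM in the other 5 samples (11182 CPM in the clustered cells of Ctrl-1). A barcode needs depth to show 6 markers, so the selection favours deep barcodes. Their median depth was 32222, 33167 and 141485.5 UMIs in OIR and 10936, 14617 and 1767 UMIs in Ctrl, and the part of depth and of these marker levels in the counts below was not tested. The pair from OIR-3 also held 8 of the 9 mural markers, at 2021 CPM, against at most 117 CPM in the other samples.

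In this selection Plvap was at 172, 75.4 and 102 CPM in OIR-1, OIR-2 and OIR-3, from 182, 5 and 29 UMIs. In Ctrl it was at 1.37, 0 and 0 CPM, from 4, 0 and 0 UMIs. Each OIR sample lay above each Ctrl sample. Plvap was detected in 22 of 27, 2 of 2 and 2 of 2 OIR barcodes, and in 3 of 165, 0 of 4 and 0 of 10 Ctrl barcodes. The pooled ratio was 116 (95% exact interval 44.8 to 431, counting error only), and edgeR called Plvap with a log2 fold change of 6.41 (SE 0.68, adjusted p = 0.00195), beside 1.40% of 3080 genes. It was the only one of the 6 members that passed the filter there to be called. Plvap reached the filter through its OIR counts alone, in a selection chosen after seeing the data. The call therefore describes those counts and adds no separate support.

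**Figure D2:**
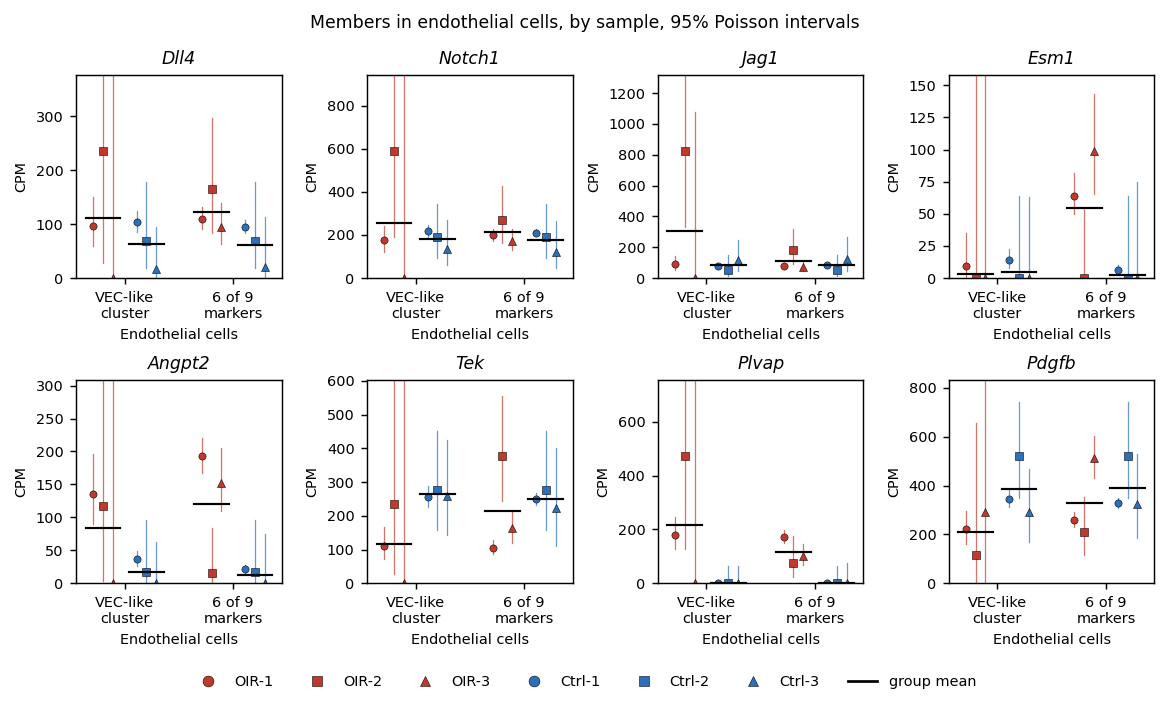
CPM of the members in endothelial-like cells of each sample (points, OIR and Ctrl, with 95% exact Poisson intervals that cover counting error only), for the clustered cells and for barcodes with at least 6 endothelial markers. Some intervals of samples with 2 cells run past the top of the axis. Plvap sits at 75.4 to 172 CPM in the 3 OIR samples of the second selection and at 0 to 1.37 CPM in Ctrl.

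The tip cell markers Esm1 and Angpt2 had high values in some OIR samples but not in all. Esm1 had 2, 0 and 0 UMIs in the clustered OIR cells and 16, 0 and 0 in Ctrl. In the second selection it had 68, 0 and 28 UMIs in OIR (64.2, 0 and 99.0 CPM) against 19, 0 and 0 in Ctrl (6.49, 0 and 0 CPM). Those UMIs came from 8 of 27, 0 of 2 and 1 of 2 OIR barcodes and from 7 of 165 in Ctrl-1. Most of the OIR signal thus lay in a minority of barcodes, and the groups overlapped through OIR-2.

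Angpt2 was at 136, 118 and 0 CPM in the clustered OIR cells, from 28, 1 and 0 UMIs, and at 36.3, 17.4 and 0 CPM in Ctrl. In the second selection it was at 193, 15.1 and 152 CPM in OIR and 21.2, 17.4 and 0 CPM in Ctrl. OIR-1 exceeded all Ctrl samples in both selections, while OIR-3 did so in the second alone and OIR-2 in the first alone. Neither gene passed the filter in either selection. Without the filter, edgeR gave Angpt2 a log2 fold change of 1.88 (SE 0.73, adjusted p = 0.464) in the clustered cells.

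Dll4, the ligand of the tip cell, did not separate the groups in the clustered cells. It was at 97.0, 236 and 0 CPM in OIR, from 20, 2 and 0 UMIs, and at 104, 69.5 and 17.2 CPM in Ctrl. In the second selection it was at 109, 166 and 95.4 CPM in OIR and 95, 69.5 and 20.4 CPM in Ctrl. Each OIR sample there lay above each Ctrl sample, narrowly for OIR-3 and Ctrl-1, and the fit gave a log2 fold change of 0.57 (SE 0.43, adjusted p = 0.587).

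Notch1, the receptor that Dll4 engages, was at 175, 590 and 0 CPM in OIR and at 219, 191 and 137 CPM in Ctrl in the clustered cells. Its log2 fold change was -0.01 (SE 0.57, adjusted p = 0.999). The second selection gave 200, 271 and 173 CPM in OIR and 211, 191 and 122 CPM in Ctrl. The ranges overlapped in both selections. Jag1 was at 92.1, 825 and 0 CPM in OIR and 80.7, 52.1 and 120 CPM in Ctrl, and at 80.2, 181 and 70.7 against 82.0, 52.1 and 122 CPM in the second selection, with overlapping ranges.

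Neither Tek nor Pdgfb was called, and in the clustered cells the groups were apart for Tek and overlapped for Pdgfb. Tek was at 112, 236 and 0 CPM in OIR, from 23, 2 and 0 UMIs, and at 255, 278 and 258 CPM in Ctrl, from 288, 16 and 15 UMIs. The 3 OIR values lay below the 3 Ctrl values, with a log2 fold change of -1.33 (SE 0.53, adjusted p = 0.443) in edgeR. The 0 of OIR-3 came from 2 cells with 3421 UMIs in all that lacked most endothelial markers, and OIR-2 rested on 2 Tek UMIs. In the second selection Tek was at 106, 377 and 163 CPM in OIR and 249, 278 and 224 CPM in Ctrl, so the ranges overlapped and the log2 fold change was -0.35 (SE 0.46, adjusted p = 0.787).

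Pdgfb was at 223, 118 and 292 CPM in OIR, from 46, 1 and 1 UMIs, and at 345, 521 and 292 CPM in Ctrl, from 389, 30 and 17 UMIs. OIR-3 was level with Ctrl-3, and OIR-2 and OIR-3 rested on 1 UMI each. The log2 fold change was -1.06 (SE 0.50, adjusted p = 0.562), and -0.17 (SE 0.39, adjusted p = 0.897) in the second selection. Angpt1 and Pdgfrb, which belong to mural cells, had 1 UMI each in the clustered endothelial-like cells, both in Ctrl-1. The other 8 members were all detected in OIR-1.

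Cells positive for several members at once were common, and depth moved with them. Among the 29 clustered OIR endothelial-like cells, all 9 that had a Plvap UMI also had Notch1 and Pdgfb, and 8 of them had Dll4 and 8 had Tek. The 8 Plvap-positive cells of OIR-1 had a median of 18478.5 UMIs, against 1722 UMIs for its 17 cells without Plvap. Among the 167 Ctrl cells, 62 had Dll4, 103 had Notch1 and 52 had both. The shares of Plvap-positive cells given above were counted at unequal depth, and their thinned values are not given here.

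Mural-like cells gave 0 called members, beside 0% of the 864 genes tested, and 1 member, Pdgfrb, passed the filter. Here 98 genes had an unadjusted p under 0.05 and DESeq2 called 28 genes, none of them a member. Pdgfrb, the receptor by which mural cells answer Pdgfb, was at 760, 335 and 95 CPM in OIR, from 62, 11 and 4 UMIs. In Ctrl it was at 1084, 1141 and 727 CPM, from 555, 64 and 39 UMIs. OIR-1 lay above Ctrl-3, so the groups overlapped, and the log2 fold change was -1.31 (SE 0.56, adjusted p = 0.408). Without OIR-3, whose cells carried fibroblast markers, it was -0.89 (SE 0.45, adjusted p = 0.348).

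With at least 6 of 9 mural markers and no gene limit, 28, 3 and 0 OIR barcodes and all Ctrl samples remained. Of these, 23 and 1 in OIR-1 and OIR-2 lay above the limit, and 0 in Ctrl. Median depth was 34949 and 19154 UMIs in OIR and 8253.5, 10733 and 11717 in Ctrl. Mural markers reached 17232 CPM in OIR-1 and 32793 CPM in OIR-2, against 32427, 29264 and 27820 CPM in Ctrl. The part of depth and of these marker levels in the Pdgfrb values was not tested. Pdgfrb was then at 446 and 555 CPM in OIR-1 and OIR-2 and at 1019, 965 and 452 CPM in Ctrl. The ranges overlapped through Ctrl-3, with a log2 fold change of -0.84 (SE 0.41, adjusted p = 0.199). In the clustered cells, all 73 Ctrl mural-like cells had a Pdgfrb UMI, as did 10 of the 13 OIR cells. Those 13 included the 6 cells of OIR-3 that carried fibroblast markers. These held 4 Pdgfrb UMIs in all, so not all of them could be positive.

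The other members in mural-like cells had overlapping ranges. Angpt1 had 1, 0 and 2 UMIs in OIR (12.3, 0 and 47.5 CPM) and 18, 2 and 4 in Ctrl (35.2, 35.7 and 74.6 CPM). Angpt2 was at 159, 30.5 and 23.8 CPM in OIR and 123, 17.8 and 74.6 CPM in Ctrl. Notch1 was at 159, 0 and 0 CPM in OIR against 178, 125 and 93.2 CPM, and Jag1 at 110, 183 and 0 CPM against 182, 107 and 336 CPM. Plvap and Esm1 had 0 UMIs in the 86 cells, and Dll4 had 4, all in Ctrl-1.

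**Figure D3:**
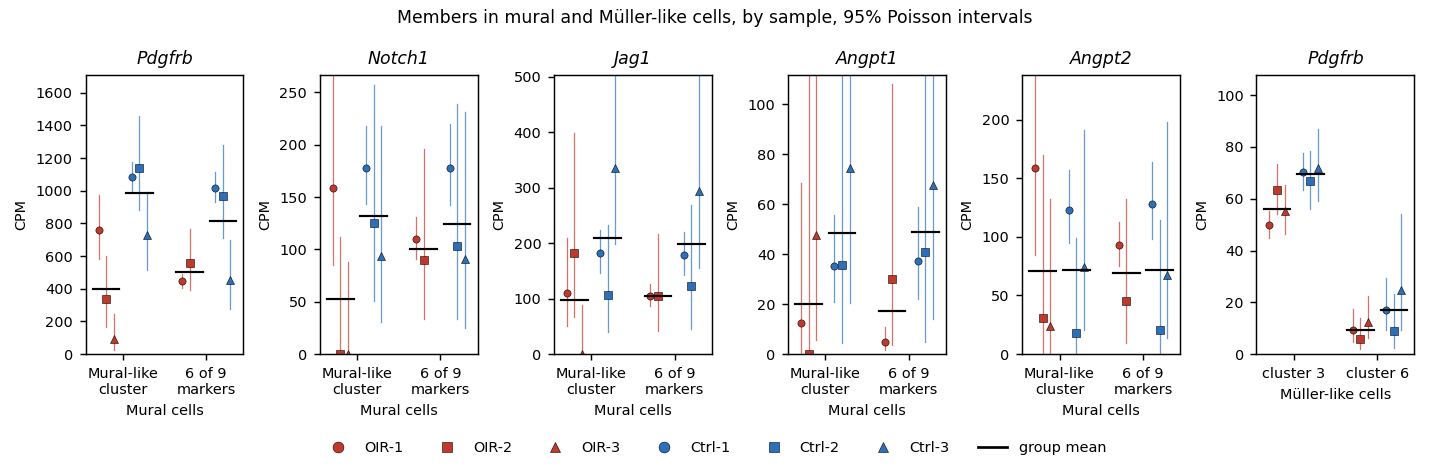
CPM of Pdgfrb, Angpt1, Angpt2, Notch1 and Jag1 in mural-like cells of each sample (points, OIR and Ctrl, with 95% exact Poisson intervals for counting error only). They are shown for the clustered cells and for barcodes with at least 6 mural markers. A last panel shows Pdgfrb in the deep and the shallow Müller-like cluster. Some intervals run past the top of the axis. In the clustered mural-like cells Pdgfrb is at 727 to 1141 CPM in Ctrl and at 95 to 760 CPM in OIR, where the lowest point is OIR-3.

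The one member called in a named cell type other than these was Jag1, and the cells were rods. In the 8340 OIR and 6312 Ctrl rod-like cells, Jag1 was at 58.2, 59.0 and 51.8 CPM in OIR, from 487, 456 and 471 UMIs. In Ctrl it was at 88.0, 109 and 125 CPM, from 460, 590 and 528 UMIs. Each OIR sample lay below each Ctrl sample, with means of 56.3 CPM ± 3.95 (SD, n = 3) and 107 CPM ± 18.4 (SD, n = 3). The log2 fold change was -1.12 (SE 0.15, adjusted p = 0.00914, edgeR), beside 2.35% of 10913 genes called in rods. Of the other members, only Notch1 passed the filter in rods, at a log2 fold change of 0.56 (SE 0.45, adjusted p = 0.553).

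The rod call depended on which samples were in the fit. It was lost when OIR-2 (adjusted p = 0.0642), OIR-3 (0.0726), Ctrl-2 (0.0683) or Ctrl-3 (0.0537) was left out, and kept without OIR-1 (0.0142) or Ctrl-1 (3.86e-04), while the log2 fold change ran from -1.28 to -0.99. Sex-linked RNA moved with it, since Ctrl-2 and Ctrl-3 had the highest levels. With a term for sex-linked RNA the log2 fold change was -0.77 (adjusted p = 0.0495), and among the 4 samples with Y-linked RNA Ctrl-1 at 88.0 CPM lay above the 3 OIR samples. With the replicate number as a block, the log2 fold change was -1.11 (SE 0.14, adjusted p = 0.00273), beside 6.30% of 10913 genes called.

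The lower Jag1 level was also measured in each of the 3 rod clusters. In the largest, Jag1 was at 61.0, 67.5 and 58.8 CPM in OIR and 92.7, 134 and 145 CPM in Ctrl. Another, which held most rods of Ctrl-2 and Ctrl-3, gave 59.8, 61.4 and 53.6 CPM against 67.4, 106 and 119 CPM. The third gave 39.8, 32.3 and 29.5 CPM against 58.6, 81.4 and 93.6 CPM. The groups did not overlap in any of the 3, and fits of each alone, added after seeing the data, gave log2 fold changes of -1.11, -1.12 and -1.33, all called (adjusted p = 0.0121, 6.06e-04 and 0.00445). Beside it, these fits called 52 genes higher and 42 lower of 10509, 189 and 175 of 8831, and 37 and 40 of 7997. These clusters share their libraries and are not replicates.

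The share of rod-like cells with a Jag1 UMI went the same way at unequal depth. It was 14.8% in OIR, at a median of 2830 UMIs, and 20% in Ctrl, at 1955.5 UMIs. Thinned to 1000 UMIs per cell, it was 5.92% of 7805 OIR cells (95% exact interval 5.41 to 6.47) and 9.84% of 5925 Ctrl cells (9.09 to 10.6), with 535 and 387 shallower cells left out. In microglia-like cells, which are not known for Jag1, the unthinned shares were 1.83% and 6.67% at medians of 10916 and 6492 UMIs.

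**Figure D4:**
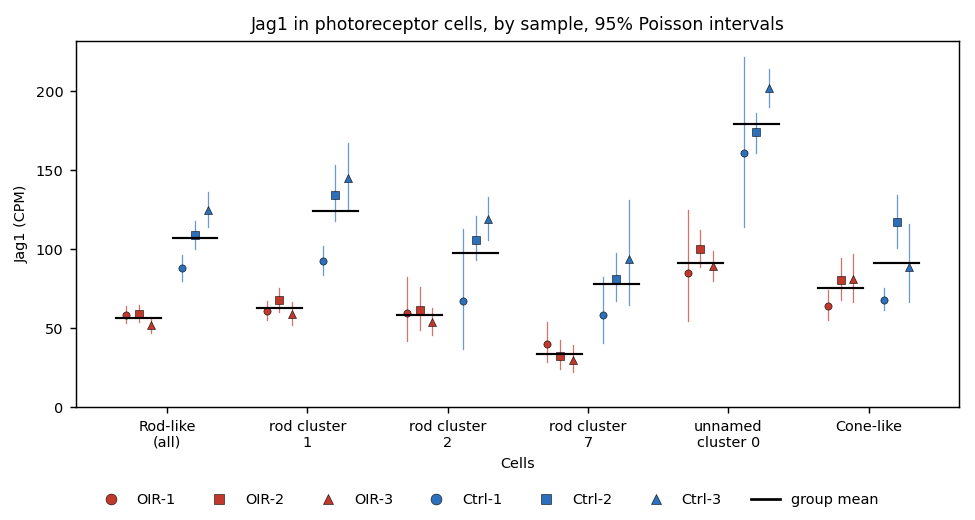
Jag1 CPM per sample (points, OIR and Ctrl, with 95% exact Poisson intervals) in rod-like cells, their 3 clusters, the unnamed rod-marker cluster and cone-like cells. OIR points sit between 51.8 and 59.0 CPM and Ctrl points between 88.0 and 125 CPM in rod-like cells, whereas the groups overlap in cone-like cells.

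A cluster of 10836 cells stayed unnamed because hemoglobin genes led it, although all 6 rod markers were above average there. In it Jag1 was at 84.7, 100 and 89.1 CPM in OIR and 161, 174 and 202 CPM in Ctrl. The groups did not overlap, and the log2 fold change was -1.17 (SE 0.15, adjusted p = 3.01e-05), beside 9.25% of 10305 genes called. With the sex-linked term it was -0.90 and not called (adjusted p = 0.367). Notch1 there had a log2 fold change of 0.97 (SE 0.40, adjusted p = 0.145).

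Cones gave a smaller difference. Jag1 was at 64.3, 80.4 and 80.8 CPM in OIR cone-like cells and 68.1, 117 and 88.7 CPM in Ctrl, and the ranges overlapped. The log2 fold change was -0.32 (SE 0.18, adjusted p = 0.553), beside 1.26% of 9338 genes called in cones. The difference between the rod and the cone effect, tested in 1 fit over 12 sums after seeing the data, was -0.72 (SE 0.16, adjusted p = 0.0091), beside 1.62% of 11424 genes called. Rod and cone sums came from the same 6 libraries, and the sample was a block in that fit.

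In Müller-like glia Jag1 was at 3.90, 6.94 and 4.48 CPM in OIR and 8.32, 8.13 and 8.11 CPM in Ctrl, with a log2 fold change of -0.78 (SE 0.29, adjusted p = 0.226).

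Müller glia, which span the retina from its inner to its outer border, carried Notch1 and Pdgfrb. Notch1 was at 107, 112 and 114 CPM in OIR Müller-like cells and 126, 130 and 146 CPM in Ctrl. Pdgfrb was at 44.5, 50 and 43.9 CPM in OIR and 63.8, 56.9 and 65.4 CPM in Ctrl. For both, each OIR sample lay below each Ctrl sample. The Müller-like cells joined a deep cluster and a shallow one, with medians of 9267.5 and 1773 UMIs, and the shallow one held 354 of 607 and 398 of 662 cells in OIR-2 and OIR-3 against 142 of 327 and 105 of 286 in Ctrl-2 and Ctrl-3. In the deep cluster Notch1 overlapped between groups (127 CPM ± 11.3 in OIR and 144 CPM ± 11.8 in Ctrl, SD), and Pdgfrb did not (56.0 ± 6.82 and 69.7 ± 2.71 CPM). In the shallow cluster Notch1 did not overlap (53.6 ± 13.3 and 75.4 ± 6.62 CPM), and Pdgfrb did (9.29 ± 3.25 and 17.1 ± 7.90 CPM). The part of this mix in the Müller values was not tested. The test called neither, with log2 fold changes of -0.34 (SE 0.12, adjusted p = 0.209) for Notch1 and -0.49 (SE 0.13, adjusted p = 0.0965) for Pdgfrb, and it called 0 of the 3 members that passed the filter, beside 2.20% of 11778 genes.

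The Müller Pdgfrb counts did not keep the proportion they had in mural cells. There were 300 Pdgfrb UMIs per 100 UMIs of Rgs5, a pericyte gene, in Müller-like cells, and 7.72 in mural-like cells. The Notch1 share was 39.8% of OIR and 46.2% of Ctrl Müller-like cells at medians of 4986.5 and 6343 UMIs, against 1.44% and 0.665% in rod-like cells.

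Microglia, the resident macrophages of the retina, were the second source of Pdgfb (the plot of members outside the vessel wall). It was at 100, 77.7 and 84.4 CPM in OIR microglia-like cells, from 77, 14 and 21 UMIs, and at 156, 203 and 174 CPM in Ctrl, from 92, 29 and 33 UMIs. Each OIR sample lay below each Ctrl sample, with means of 87.4 CPM ± 11.4 (SD, n = 3) and 178 CPM ± 23.4 (SD, n = 3). The log2 fold change was -0.92 (SE 0.24) and was not called (adjusted p = 0.131), beside 0.324% of 3393 genes. The share of cells with a Pdgfb UMI was 57.8% of 109 OIR cells and 63.0% of 135 Ctrl cells, and 9.17% and 15.6% after thinning, with overlapping exact intervals.

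Notch1 lay the other way in microglia-like cells, at 45.5, 44.4 and 64.3 CPM in OIR and 23.8, 42 and 26.4 CPM in Ctrl, with no overlap. It fell below the filter, and without the filter edgeR did not call it (log2 fold change 0.89, SE 0.42, adjusted p = 0.720). In pigment epithelium-like cells Notch1 had 0, 1 and 2 UMIs in OIR and 3, 10 and 2 in Ctrl. In CPM the groups did not overlap there (0, 8.02 and 15.5 against 34.3, 43.1 and 74.3), and it was not called without the filter (log2 fold change -2.01, SE 0.93, adjusted p = 0.842).

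**Figure D5:**
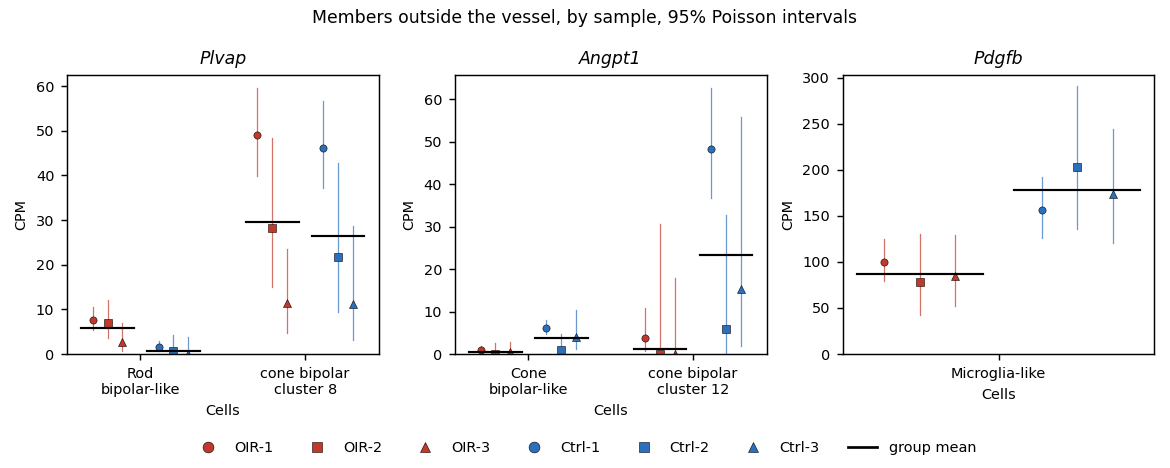
CPM per sample (points, OIR and Ctrl, with 95% exact Poisson intervals) of members with counts outside the vessel wall. Plvap is shown in rod bipolar-like cells and a cone bipolar-like cluster. Angpt1 is shown in cone bipolar-like cells and a cluster of them, and Pdgfb in microglia-like cells. The 3 OIR points lie below the 3 Ctrl points for Pdgfb, which was not called.

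Plvap was also counted in neurons, and cone bipolar-like cells held 271 of its 481 UMIs in kept cells (56.3%), endothelial-like cells 41. A cone bipolar-like cluster with Epha7, Kcng4 and Sox6 among its leading genes held 222 Plvap UMIs in 152 of 838 cells. Its level was 49.0, 28.3 and 11.5 CPM in OIR and 46.1, 21.7 and 11.2 CPM in Ctrl, and the ranges overlapped. Over all cone bipolar-like cells the log2 fold change was 0.47 (SE 0.38, adjusted p = 0.698), beside 0.858% of 10259 genes called (5.00% with the replicate block). In amacrine-like cells Plvap was at 35.8, 25.6 and 10.8 CPM in OIR and 26.7, 27.5 and 0 CPM in Ctrl, also overlapping, and no member passed the filter in that type, where 0.0529% of 3784 genes were called.

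In rod bipolar-like cells Plvap was at 7.56, 6.92 and 2.72 CPM in OIR, from 36, 12 and 4 UMIs, and at 1.47, 0.778 and 0 CPM in Ctrl, from 8, 1 and 0 UMIs. Each OIR sample lay above each Ctrl sample. No member passed the filter there, where 2.46% of 9332 genes were called. Without the filter edgeR called it (log2 fold change 2.36, SE 0.62, adjusted p = 0.00700), beside 3.47% of 17480 genes. With a sample left out, Plvap passed the filter 4 times, through its OIR counts alone, and was called once, without OIR-3 (adjusted p = 0.0485).

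Angpt1 had a neuronal source in Ctrl. A cone bipolar-like cluster led by Slit2, Zfhx4, Scgn and Irx6 held 57, 1 and 2 Angpt1 UMIs in Ctrl (48.4, 5.87 and 15.4 CPM) and 3, 0 and 0 in OIR (3.74, 0 and 0 CPM). Ctrl-1 gave most of the counts, and the level of Ctrl-2 rested on 1 UMI, too few to separate the groups. Over all cone bipolar-like cells, Angpt1 averaged 0.469 CPM ± 0.450 in OIR and 3.69 CPM ± 2.68 in Ctrl (SD, n = 3), and the groups overlapped. Of its 71 UMIs there, 57 were those of Ctrl-1 in the cluster above. Angpt1 fell below the filter, and without the filter edgeR called it lower in OIR (log2 fold change -2.77, SE 0.67, adjusted p = 0.00303), beside 2.24% of 18906 genes. In pigment epithelium-like cells no member passed the filter, where 0.0567% of 1763 genes were called.

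Summed over all kept cells, whatever their type, 8 members passed the filter and 0 were called, beside 0% of 15167 genes, of which 1188 had an unadjusted p under 0.05 and DESeq2 called 211. In such sums, fewer cells of a type and less RNA per cell cannot be told apart. Tek was at 0.760, 0.148 and 0.451 CPM in OIR and 8.66, 0.986 and 1.16 CPM in Ctrl (log2 fold change -3.0, SE 0.99, adjusted p = 0.576). Pdgfb was at 4.07, 1.13 and 1.04 CPM against 14.3, 3.42 and 3.82 CPM (log2 fold change -1.84, SE 0.76, adjusted p = 0.629). Ctrl-1, with the highest value of both, also had the most endothelial-like cells. In these sums the replicate numbers were taken to pair the samples, from correlations and not from a label. With the replicate block Pdgfb was called lower in OIR (log2 fold change -1.86, SE 0.20, adjusted p = 0.0285), beside 1.60% of 15167 genes. The remaining members had log2 fold changes of -1.72 for Angpt1, -1.22 for Jag1, -0.80 for Pdgfrb, -0.42 for Angpt2, -0.10 for Notch1 and 0.66 for Plvap, with adjusted p between 0.613 and 0.949.

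No gene of the wider pathway lists was called in endothelial-like cells, where the test recovered 0% of simulated 2-fold changes. Of 12 other tip cell genes 5 were tested, with a median log2 fold change of -0.21 beside -0.18 over all genes. Those with the lowest p were Igfbp3 (1.96, adjusted p = 0.607) and Mcam (1.16, adjusted p = 0.788). Of 17 Notch pathway genes 2 were tested, the ligand-shedding protease Adam10 (-1.41, adjusted p = 0.572) and the Notch target Hes1 (-0.63, adjusted p = 0.901). Of 9 angiopoietin-Tie genes 3 were tested, all with negative log2 fold changes (median -0.78), among them the Tie2 phosphatase Ptprb (-1.29, adjusted p = 0.706) and Tie1 (-0.78, adjusted p = 0.810). None of the 6 PDGF genes passed the filter. Of 12 barrier and caveolar genes 8 were tested, all 8 with negative log2 fold changes and a median of -1.19, and the lowest p were those of Itm2a (-2.47, adjusted p = 0.260) and the efflux pump Abcb1a (-2.18, adjusted p = 0.337). The 2 cells of OIR-3, which lacked most endothelial markers, entered all these fits. Of the 8 barrier and caveolar genes tested, they held 2 UMIs of Cldn5 and 0 of every other. The part of OIR-3 in these values was not tested.

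In Müller-like glia 4 of the 8 tip cell list genes tested were higher in OIR and 0 lower, beside 158 higher and 101 lower of all 11778 genes, with a median log2 fold change of 1.22 beside -0.01 over all genes. These were Apln, the ligand of the apelin receptor (2.23, SE 0.35, adjusted p = 0.0144), the actin bundler Fscn1 (1.31, SE 0.13, adjusted p = 0.00283), the peptide hormone Adm (4.46, SE 0.88, adjusted p = 0.0301) and the adhesion molecule Mcam (1.37, SE 0.26, adjusted p = 0.0264). In the same cells the thyroid hormone transporter Slco1c1 of the barrier list was lower (-4.76, SE 0.61, adjusted p = 0.00671). The lists were chosen with earlier results of these data known, so their counts and medians beside all genes are descriptions only. Elsewhere the share of all genes called was 2.46% in rod bipolar-like, 0.858% in cone bipolar-like and 1.26% in cone-like cells. Slc2a1, the glucose transporter, was higher in rod bipolar-like cells (1.31, adjusted p = 0.0143), Marcks in rod bipolar-like (1.68, adjusted p = 0.00989) and cone bipolar-like cells (1.09, adjusted p = 0.0249), and Itm2a in cone-like cells (1.21, adjusted p = 0.0496).

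The genes most like each member across cell types were mostly markers of the same type. By Pearson's r of log2(CPM + 10) over the 10 named types, with counts summed over samples, Dll4 lay nearest to Tmem252, Clec1a and Foxq1 (each 0.999), Tek to Tie1 (0.999), Thbd (0.998) and Adgrf5 (0.997), and Pdgfb to Fli1 (0.999), Def6 (0.998) and Lmo2 (0.987). Pdgfrb lay nearest to Vstm4 (1.000), Ano1 (0.996) and Spon2 (0.993), and Angpt2 to Mgp, Hic1 (each 0.996) and A4galt (0.995). Angpt1 lay nearest to Dmpk (0.985), Ctsk and Ogn (each 0.983), and Esm1, with 22 UMIs in all, to Sox18, Aplnr and Sox17 (each 1.000). The members shared by several types had lower values: Notch1 with Acsf2 (0.987), Anxa5 (0.981) and Vamp3 (0.980), Jag1 with Airn (0.944), Cdc42ep3 (0.933) and Adcy6 (0.917), and Plvap with Cx3cl1 (0.957), Cacna1e and C230037L18Rik (each 0.955). These are descriptions over points that share their libraries.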

How the data were processed

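Per the labels and the study's methods, retinas were dissociated with hyaluronidase and DNase I, and libraries were made with the 10x Genomics 3′ kit, version 3. The authors deposited raw UMI counts per gene and barcode for each of 6 samples. The labels named mm10, the matrix headers gave software 3.1.0, and the genes were those of the mouse. Reads were counted from 3′ ends, so levels were not divided by gene length.

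Cells with 500 to 5000 genes and at most 20% mitochondrial UMIs were kept, integrated with Seurat 5.3.0 (2000 variable genes, 15 components, resolution 0.5, seed 42) and named from fixed marker lists that held no member. Of 47631 barcodes 38569 were kept. Scrublet marked 174 and 329 barcodes in OIR-1 and Ctrl-1 and 0 in the others, so doublets were removed in an alternative by a fixed rate of 0.8% per 1000 barcodes instead. Counts were summed per sample and type and tested with edgeR 4.0.16 (TMM scaling, filterByExpr, Benjamini-Hochberg over all genes tested). Alternatives were DESeq2 1.42.0, no filter, a replicate block, a sex-linked term, replicates 2 and 3 only, a 10% mitochondrial limit, marker selections without clustering, and each sample left out. Intervals were exact at 95%; they and the limit of 3 UMIs for a count of 0 describe counting error alone. In simulated counts with 200 changed genes, 4-fold changes were recovered for 45.5% in endothelial-like cells (952 genes), 94.5% in Müller-like glia (11778) and 99.5% in rod-like cells (10913), and 2-fold changes for 0%, 65% and 75.5%.

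The replicate numbers were taken to pair the samples where the correlation of same-numbered deviations from the group means was over 0.1 in every pair. This held for all kept cells (0.67, 0.298 and 0.506), rod-like cells (0.397, 0.16 and 0.277) and cone bipolar-like cells (0.348, 0.14 and 0.194), and not in endothelial-like cells (-0.135, 0.101 and 0.209). No batch or pairing was named in the labels, and deviations from a shared group mean are not independent of each other. Named genes were the 10 members; list genes called in endothelial-like or mural-like cells, or the 4 with the lowest p where more were called elsewhere; the 2 list genes of lowest p in endothelial-like cells; and the 3 genes nearest to each member. The members and lists were chosen with earlier results of these data known.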

Additional observations from a re-analysis of the deposited data

Results flagged for a closer look

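The OIR effect on Jag1 differed between the photoreceptor types, since its log2 fold change in rod-like cells minus that in cone-like cells was -0.72 (SE 0.16, adjusted p = 0.0091, edgeR). That test, with the sample as a block over 12 sums from 6 libraries, was added after the data were seen.

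Barcodes above the limit of 5000 genes entered no main comparison. Those with at least 6 endothelial markers numbered 19 in OIR and 47 in Ctrl. For 4 members, the exact Poisson interval of the level in summed OIR counts lay wholly above that of Ctrl. These intervals cover counting error only, and the share of all genes that meet the same rule was not counted. Plvap was at 143 CPM in OIR against 2.17 CPM in Ctrl, Esm1 at 76.9 against 1.63 CPM, and Angpt2 at 180 against 11.4 CPM. Pdgfrb was at 17.2 against 2.17 CPM, and all its 21 OIR UMIs lay in 1 barcode of OIR-3. The 2 OIR-3 barcodes also held 8 of 9 mural markers. The 47 Ctrl barcodes were all from Ctrl-1, and these differences were not tested.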

How the results depend on the processing

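Of 22 member fold changes, 15 kept their sign under every alternative run. Endothelial-like cells had 0 called members, and 1 (Plvap) without the filter on low counts, with at least 6 markers, and without any single Ctrl sample (0 to 1 over samples left out). The fits without Ctrl-1, Ctrl-2 or Ctrl-3 called 6 genes higher and 7 lower of 1219, 4 and 3 of 1234, and 5 and 4 of 1240. Where Plvap passed the filter in these fits, it did so through its OIR counts alone. Mural-like cells had 0 throughout. Other named types had 1, and 3 without the filter (Jag1, Plvap and Angpt1) and 0 to 1 with a sample left out. All kept cells had 0, and 1 with the replicate block and 2 with replicates 2 and 3 only. Over all genes these sums had 0 calls in the main fit. The block gave 106 higher and 136 lower of 15167, and replicates 2 and 3 only gave 299 and 414 of 14970. List genes had 9 calls over the named types, 14 with DESeq2, 17 without the filter, 17 with the replicate block, 24 with replicates 2 and 3 only and 4 to 11 with a sample left out. Calls over all genes changed with the setting too. With replicates 2 and 3 only, rod-like cells went from 142 higher and 115 lower of 10913 to 885 and 1035 of 10937. Endothelial-like cells went from 0 and 3 of 952 to 0 and 0 of 547. The list counts are therefore not a result about the lists by themselves. The replicate block changed no other call of a member. Signs turned for Notch1 in endothelial-like cells (-0.01, but 0.33 with DESeq2, 0.01 with the replicate block, 0.05 at the 10% mitochondrial limit, 0.09 without doublets, 0.11 and 0.20 with at least 3 and 6 markers, and -0.29 to 0.59 with a sample left out). They also turned for Notch1 in all kept cells (-0.30 to 0.07 with a sample left out), for Angpt2 there (0.15 with replicates 2 and 3 only, -1.04 to 0.75 with a sample left out, the highest without Ctrl-1), for Jag1 there (0.14 with the sex-linked term) and in cones (0.06 with that term), for Plvap in all kept cells (-0.39 with that term, -0.38 to 1.96 with a sample left out) and in cone bipolar-like cells (-0.17 to 1.12). The cause was not tested. Of 40 shares of positive cells, 23 moved when cells were thinned to 1000 UMIs. In endothelial-like cells of OIR-2 and OIR-3, 2 cells each limit every value.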
